A study of Homo sapiens with 8 samples.

Results

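The insulin-like growth factor (IGF) axis was examined through 10 genes given by name, namely IGF2, IGF1R, IGF2R, IRS1, IRS2, IGFBP2, IGFBP3, IGFBP4, IGFBP5 and IGFBP6. They are 10 of the 60282 genes listed for each library. The rule names them without using a measured value, although they were chosen with earlier results of these data known. All 10 passed the filter on low counts (more than 1 CPM in at least 4 libraries), IGFBP5 through the vehicle group alone. The data are RNA-seq libraries of SK-UT-1 cells, a human uterine leiomyosarcoma (uLMS) line grown in medium with fetal bovine serum. Libraries came in 2 groups: 4 from cells given DMSO as vehicle and 4 from cells given 5 µM TP-472, an inhibitor of the bromodomain proteins BRD9 and BRD7, for 48 h. The total estimated count per library was 32574716 to 36634184 in vehicle (median 35420723) and 36246466 to 38545695 with TP-472 (median 37550860). More genes had a count with TP-472 (25386 to 26215 per library) than in vehicle (23333 to 23943), without overlap. The mitochondrial share of the counts was 0.199% to 0.282% with TP-472 and 0.285% to 0.424% in vehicle. The part of these differences in rises from very few counts was not tested.

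The ligands IGF1 and IGF2 are secreted and bind the tyrosine kinase receptor IGF1R, which passes the signal through the docking proteins IRS1 and IRS2 to PI3K and AKT and, through SHC1 and GRB2, to the MAP kinases. IGF2R has no kinase and carries IGF2 to lysosomes, where it is degraded. The IGF binding proteins hold the ligands outside the cell, prolong their life and control their access to the receptor, and proteases that cleave them release the ligands. IGF2 is an imprinted growth factor gene that is often highly expressed in leiomyosarcomas.

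Levels are given as CPM, the counts of a gene relative to the library total, scaled with TMM factors. A gene is called differentially expressed where edgeR's quasi-likelihood test gave an adjusted p-value under 0.05, over all genes tested, and the fold change exceeded 1.5. The study states biological replicates for its experiments in general, and the labels do not say whether these replicates were separate cultures. The p-values measure the spread between these libraries, which may be technical. In RNA from a whole culture, fewer cells with a transcript and less of it per cell cannot be told apart.

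Vehicle replicate 3 stood apart from the other 7 libraries. Its log2 CPM, here without the TMM factors, correlated at 0.954 to 0.969 with the other vehicle libraries. Those correlated at 0.993 to 0.998 with each other. Each pair was compared over genes with at least 10 counts in the pair. The GC content of its coding genes, weighted by counts, was 51.1%, against 47.6% to 48.1% in the other libraries. It held the highest vehicle level of 9 of the 10 IGF axis genes, IGFBP3 being the exception. Across all genes tested it was the highest vehicle library for 43.2% and the lowest for 43.8%. All 10 genes also had a GC content above the median of the tested genes (49.1%), from 50.6% for IGF2R to 63.0% for IGFBP6. The part of this library and of GC content in each change was not tested as a cause. Values without the library (3 vehicle against 4 TP-472 libraries) are therefore given for each of the 10 genes, and for other genes where they end a call. Values with a correction for GC content are given for the listed genes described here where that correction changes a call.

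Of the smooth muscle markers, the actin gene ACTA2 stood at 146 to 177 CPM in vehicle and the caldesmon gene CALD1 was the most abundant of the list (mean 196 CPM over all libraries). The summed level of the 9 smooth muscle markers was 439 to 524 CPM in vehicle and 371 to 380 CPM with TP-472. Of the 7 tested, 3 (DES, TAGLN and LMOD1) were called lower, where 14.9% of all genes tested were, and DES and LMOD1 passed the filter on low counts through the vehicle group alone. TAGLN was not called with the GC correction (-0.45), and ACTA2 was called lower without vehicle replicate 3 (-0.60). The desmin gene DES was low in vehicle (3.01 to 3.49 CPM) and lower with TP-472 (0.396 to 0.777 CPM). MYH11 and MYOCD, which mark mature smooth muscle, stayed under 1 CPM in every library and were not tested. MYH11 had 0 or 1 count per library in vehicle and 7 to 10 counts with TP-472, without overlap and against the direction of the markers called. The calponin gene CNN1 was not called (0.13 ± 0.25). Among the other cell types, the T cell gene CD3E and the B cell gene MS4A1 were at 0 in every library, which allows up to 0.0868 scaled CPM in the shallowest one (3 counts, counting error only). The leukocyte gene PTPRC had 1 count in a single library. All 3 endothelial markers stayed under 1 CPM, with summed levels of 0.0554 to 0.144 CPM in vehicle and 0.414 to 0.581 CPM with TP-472. The 5 immune markers summed to 7.15 to 8.51 CPM and 9.75 to 12.9 CPM, nearly all from CD68, which was not called with all libraries (0.47) and was called higher with the GC correction (0.62). The 5 epithelial markers summed to 17.5 to 23.1 CPM in vehicle and 20.4 to 26.8 CPM with TP-472. KRT19 had the highest mean of them in vehicle (8.88 CPM, against 7.39 CPM for KRT18). With TP-472 the highest was KRT18 (15.6 CPM, against 4.93 CPM for KRT19). KRT18 was called higher (1.08 ± 0.14, edgeR adjusted p = 7.26e-04) and KRT19 lower (-0.85 ± 0.21, edgeR adjusted p = 0.0151). With the GC correction KRT19 was not called (-0.52) and KRT8 was called higher (0.74). The 4 fibroblast markers summed to 4.08 to 22.6 CPM in vehicle, mostly the collagen gene COL1A1, and to 2.58 to 3.68 CPM with TP-472, while DCN and LUM were nearly absent with 1 count each over all libraries. COL1A1 was called lower (-2.35 ± 0.65, and -1.46 without vehicle replicate 3). The part of these marker genes in the changes of the IGF axis genes was not tested.

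IGFBP3 rose and IGFBP5 fell by a large factor in TP-472-treated cells, IGFBP6 and IRS2 fell by less, and the other 6 IGF axis genes were not called. Thus 4 of the 10 genes were differentially expressed, 1 higher and 3 lower, where 26.9% of all 14073 genes tested were called, 12% higher and 14.9% lower. The median log2 fold change of the 10 genes was -0.67 and that of all genes tested -0.03. Without vehicle replicate 3 there were also 4 calls, but 2 higher (IGFBP2 and IGFBP3) and 2 lower (IGFBP5 and IGFBP6). The background was then 25.9% of the 14217 genes tested. The median of the 10 genes was then -0.25 and that of all genes 0.00. With the GC correction, IGFBP2 and IGFBP3 were called higher and only IGFBP5 lower, against a background of 28.2% (13.4% higher and 14.8% lower). The TP-472 libraries lay wholly outside the range of the vehicle libraries for 3 of the 10 genes (IGFBP3, IGFBP5 and IGFBP6), and for 45.4% of all genes tested.

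**Figure D1:**
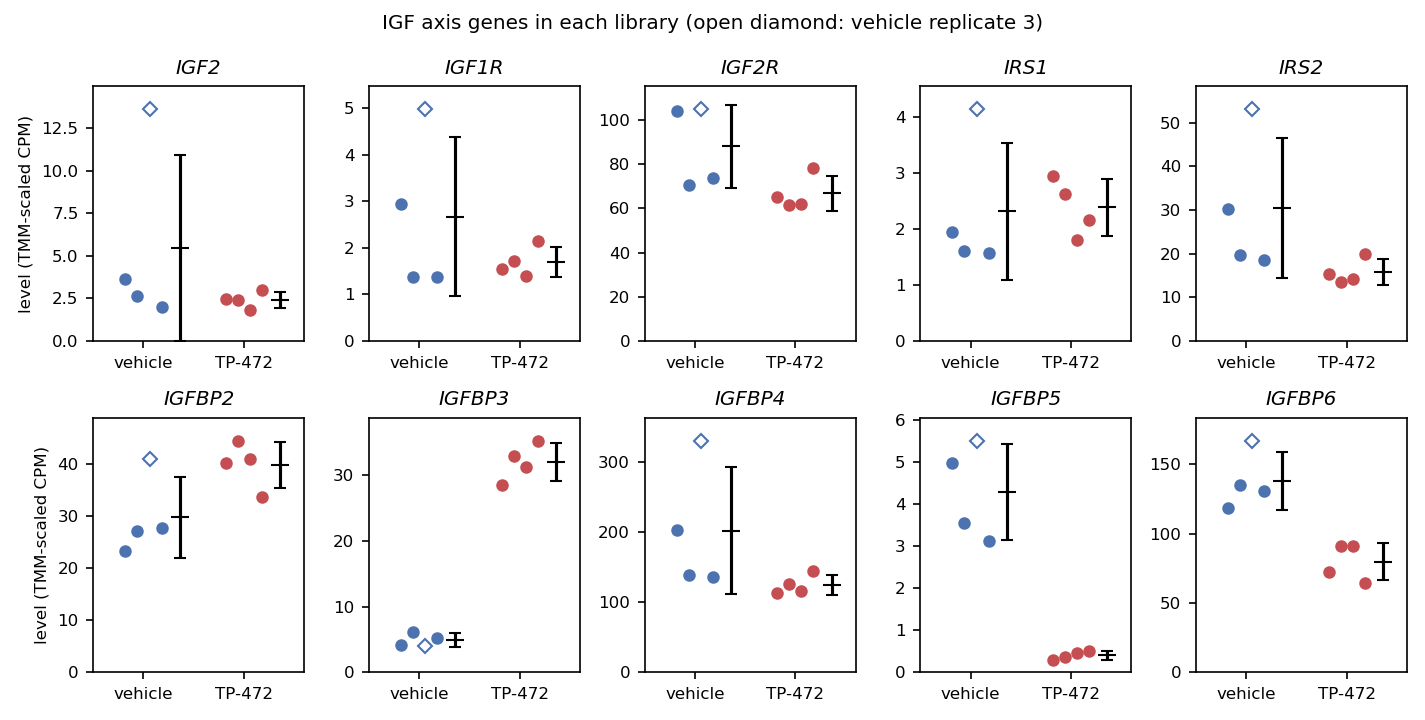
Level of each IGF axis gene (TMM-scaled CPM, vertical axis from 0) in the 4 vehicle and the 4 TP-472 libraries, 1 point per library, with the mean and SD in black. The open diamond is vehicle replicate 3, the highest vehicle library for 9 of the 10 genes. The groups do not overlap for IGFBP3, IGFBP5 and IGFBP6.

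IGF2, the ligand, is annotated at chr11:2129112-2149603 on the minus strand (GRCh38, GENCODE 29). Its level was 3.63, 2.64, 13.6 and 2.02 CPM in vehicle replicates 1 to 4 and 2.46, 2.40, 1.83 and 2.99 CPM in TP-472 replicates 1 to 4. The groups overlapped, and vehicle replicate 3 alone stood far above the other 7 libraries. This gave a log2 fold change of -1.18 ± 0.57 (SE, n = 4 per group, edgeR adjusted p = 0.13), and -0.20 ± 0.23 without that library (adjusted p = 0.494). The exact permutation test over the 70 assignments of the libraries gave p = 0.257. These are low levels, from 72 to 471 counts per vehicle library. The other ligands were nearly absent. IGF1 had 1 count over the 8 libraries and the insulin gene INS had 0.

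The readthrough gene INS-IGF2, which overlaps IGF2, was at 0 in every library, and the antisense gene IGF2-AS had 5 counts in all. H19, the imprinted noncoding RNA beside IGF2, had 11 counts over the 8 libraries. IGF2 and IGF2-AS lie on opposite strands, and whether the counting used the strand is not given in the sources used here. Of 20 genes listed for this region on 11p15.5, 9 were tested, 1 was called higher and 3 lower, where 26.9% of all genes tested were called. Without vehicle replicate 3, and also with the GC correction, 2 were higher and 2 lower, because TSSC4 (0.71 and 0.83) was then called higher and CTSD was not called. PHLDA2, an imprinted gene that restrains placental growth, rose from 0.618 to 1.88 CPM in vehicle to 4.37 to 4.83 CPM (log2 fold change 2.12 ± 0.33, edgeR adjusted p = 0.00173). SLC22A18, an imprinted transporter gene, fell (-1.68 ± 0.37, and -1.17 without vehicle replicate 3). The imprinted antisense RNA KCNQ1OT1 was called lower (-0.81 ± 0.25, edgeR adjusted p = 0.0344), overlapped between the groups and was not called in 6 of 22 alternatives. CTSD, a lysosomal protease gene that is also among the proteases, was called lower (-0.91 ± 0.25), and was not called without vehicle replicate 3 (-0.57) or with the GC correction (-0.41). Of the 3 IGF2 mRNA-binding proteins, which stabilise IGF2 and other transcripts, IGF2BP3 fell from 73.4 to 98.4 CPM in vehicle to 58.7 to 62.6 CPM (-0.60 ± 0.12, edgeR adjusted p = 0.00507), just over the limit on fold change, which it missed in 4 of 22 alternatives. IGF2BP2 was called lower with all libraries (-0.79 ± 0.27) but not without vehicle replicate 3 (-0.45), nor in 13 of 22 alternatives in all. IGF2BP1 was not called (-0.41 ± 0.26).

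Among the receptors neither IGF1R nor IGF2R was called. IGF1R, at chr15:98648539-98964530 on the plus strand, stood at 2.94, 1.38, 4.98 and 1.38 CPM in vehicle and 1.55, 1.72, 1.39 and 2.14 CPM with TP-472. The groups overlapped, with vehicle replicate 3 the highest. Its log2 fold change was -0.65 ± 0.41 (edgeR adjusted p = 0.24), and -0.16 ± 0.29 without that library. IGF2R, at chr6:159969099-160113507 on the plus strand, was far more abundant. Its level was 104, 70.4, 105 and 73.6 CPM in vehicle and 65.2, 61.6, 62.0 and 78.3 CPM with TP-472. A single TP-472 library, replicate 4, lay within the vehicle range. Its log2 fold change was -0.40 ± 0.16 (edgeR adjusted p = 0.0836) and -0.31 ± 0.14 without vehicle replicate 3 (adjusted p = 0.0837).

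The insulin receptor gene INSR, whose protein binds insulin and, in one isoform, IGF2, and forms hybrid receptors with IGF1R, did fall. INSR was at 51.3, 43.4, 67.6 and 41.7 CPM in vehicle and at 25.2, 21.3, 22.3 and 25.5 CPM with TP-472. All 4 TP-472 libraries lay below every vehicle library, and the log2 fold change was -1.11 ± 0.17 (edgeR adjusted p = 0.00151), or -0.95 without vehicle replicate 3. Per kb of merged exons, the level of INSR was 18.1 to 42.0 times that of IGF1R in vehicle and 15.9 to 21.7 times with TP-472, and these ranges overlapped. Of 12 genes listed as sorting partners and neighbours of IGF2R, 7 were tested and M6PR was the single call (14.3%, against 26.9% of all genes tested). M6PR encodes the small mannose 6-phosphate receptor, which like IGF2R sorts lysosomal enzymes. It rose from 53.9 to 108 CPM in vehicle to 154 to 166 CPM (0.88 ± 0.20, edgeR adjusted p = 0.0106).

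The docking proteins IRS1 and IRS2 were expressed at different levels. IRS1, at chr2:226731317-226799759 on the minus strand, was at 1.94, 1.61, 4.14 and 1.57 CPM in vehicle and 2.95, 2.62, 1.80 and 2.17 CPM with TP-472. Vehicle replicate 3 was the highest of all libraries, and without it 3 of the 4 TP-472 libraries lay above the vehicle range. The log2 fold change was 0.04 ± 0.34 (edgeR adjusted p = 0.927), 0.48 ± 0.20 without that library (adjusted p = 0.0703), and slightly below 0 with scaling by total counts. IRS2, at chr13:109752698-109786568 on the minus strand, was at 30.2, 19.8, 53.1 and 18.5 CPM in vehicle and 15.4, 13.5, 14.1 and 20.0 CPM with TP-472. The groups overlapped through TP-472 replicate 4. IRS2 was called lower at a log2 fold change of -0.95 ± 0.33, with an edgeR adjusted p of 0.0487 that lay just inside the threshold. Without vehicle replicate 3 the log2 fold change was -0.54 ± 0.19 (adjusted p = 0.033), under the limit on fold change. With the GC correction it was -0.58 (adjusted p = 0.0446) and with the replicate number as a block -0.83 (adjusted p = 0.0967), and IRS2 was called in neither. Leaving out single libraries ended the call in 6 of 8 cases. Per kb, IRS2 stood at 14.4 to 19.03 times IRS1 in vehicle and at 6.31 to 11.3 times with TP-472, without overlap. IRS4, a further docking protein, had at most 5 counts in a library.

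Of the 10 genes, the largest changes were those of 2 binding proteins. IGFBP3, the main carrier of IGFs in serum, is at chr7:45912245-45921874 on the minus strand. Its level was 4.21, 6.21, 4.08 and 5.20 CPM in vehicle (4.93 ± 0.99, SD, n = 4) and 28.4, 32.9, 31.2 and 35.2 CPM with TP-472 (31.9 ± 2.9, SD, n = 4). Every TP-472 library lay far above every vehicle library, and vehicle replicate 3 was the lowest. IGFBP3 rose by 2.70 ± 0.17 on the log2 scale (edgeR adjusted p = 3.44e-05), a 6.48-fold difference, and by 2.61 ± 0.14 without vehicle replicate 3. It ranked 44th by size among the 1693 genes called higher. The exact permutation p was 0.0286, the smallest that 4 against 4 libraries can give.

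IGFBP5, a binding protein with affinity for the extracellular matrix, is at chr2:216672105-216695525 on the minus strand. IGFBP5 stood at 4.96, 3.54, 5.50 and 3.12 CPM in vehicle (4.28 ± 1.1, SD, n = 4) and 0.285, 0.366, 0.472 and 0.502 CPM with TP-472 (0.406 ± 0.0997, SD, n = 4). The groups were wide apart, although the TP-472 values rest on 11 to 19 counts per library against 111 to 190 in vehicle. IGFBP5 had a log2 fold change of -3.39 ± 0.28 (edgeR adjusted p = 9.39e-05), a 10.5-fold lower level, and -3.25 ± 0.25 without vehicle replicate 3. It passed the filter through the vehicle group alone, since no TP-472 library was over 1 CPM. Of the 267 tested genes that passed through a single group in this way, 266 were called, as a gene that low in both groups would not have been tested. With no filter on low counts, IGFBP5 stood at -3.39 ± 0.29 (edgeR adjusted p = 3.15e-06). RefSeq lists an antisense gene, IGFBP-AS1, across the start of IGFBP5.

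IGFBP6, which prefers IGF2 over IGF1, is at chr12:53097436-53102345 on the plus strand. Its level was 118, 135, 167 and 131 CPM in vehicle and 72.3, 91.1, 91.2 and 64.7 CPM with TP-472. All TP-472 libraries lay below all vehicle libraries (exact permutation p = 0.0286). The log2 fold change was -0.79 ± 0.16 (edgeR adjusted p = 0.00541), and -0.68 ± 0.12 without vehicle replicate 3 (adjusted p = 0.00108). With the GC correction it was -0.41 (adjusted p = 0.0754) and IGFBP6 was not called. With both the correction and vehicle replicate 3 left out it was -0.56 (adjusted p = 0.00245), just under the limit on fold change.

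IGFBP2 and IGFBP4 were not called with all 8 libraries. IGFBP2, at chr2:216632828-216664436 on the plus strand, was at 23.3, 27.0, 40.9 and 27.7 CPM in vehicle and 40.2, 44.5, 41.0 and 33.7 CPM with TP-472. Apart from vehicle replicate 3, every vehicle library lay below every TP-472 library. The log2 fold change was 0.42 ± 0.18 (edgeR adjusted p = 0.0962) with all libraries. Leaving out vehicle replicate 3 gave 0.61 ± 0.10 (adjusted p = 7.80e-04), and the GC correction gave 0.76 (adjusted p = 2.36e-04), and IGFBP2 was called higher in both. IGFBP4, which is cleaved by the protease PAPPA, is at chr17:40443461-40457731 on the plus strand. Its level was 204, 139, 331 and 136 CPM in vehicle and 113, 126, 116 and 145 CPM with TP-472, with TP-472 replicate 4 inside the vehicle range. Its log2 fold change was -0.70 ± 0.27 (edgeR adjusted p = 0.0738) and -0.36 ± 0.15 without vehicle replicate 3 (adjusted p = 0.06), and -0.21 with the GC correction (adjusted p = 0.234).

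**Figure D2:**
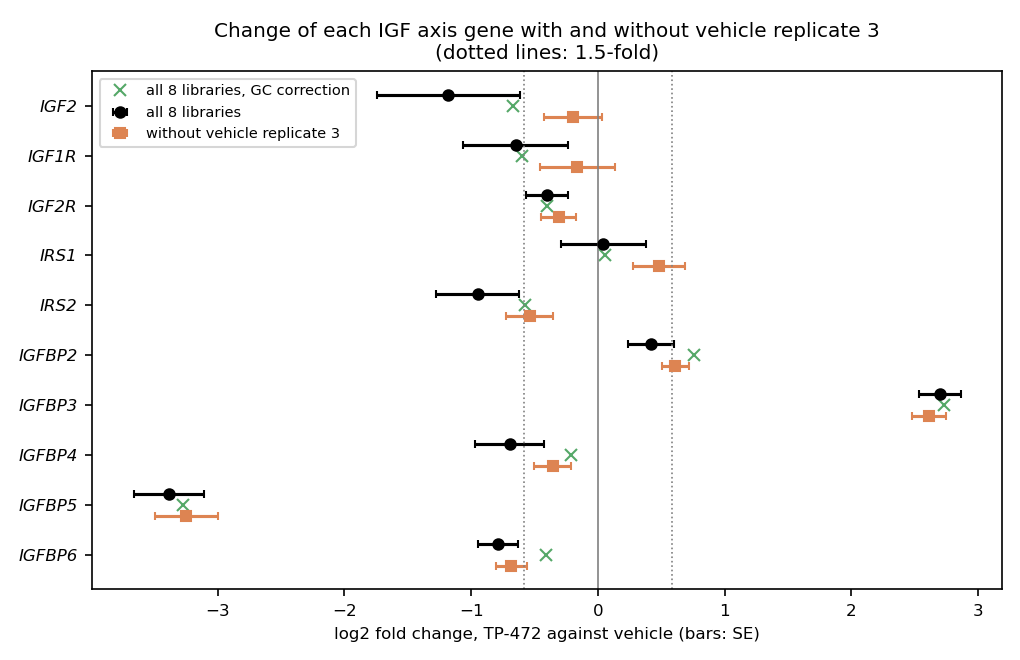
Log2 fold change of each IGF axis gene, TP-472 against vehicle, with all 8 libraries (circles, bars are SE), without vehicle replicate 3 (squares, bars are SE) and with the GC correction (crosses). Dotted lines mark 1.5-fold. IGFBP3 and IGFBP5 hardly move between the 3 settings, whereas IGF2 goes from -1.18 to -0.20 without the library.

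Binding protein genes outside the named 10 were few. IGFBP7, a secreted protein with low affinity for IGFs, rose from 0.287 to 0.506 CPM in vehicle to 1.14 to 1.61 CPM (1.89 ± 0.24, edgeR adjusted p = 7.49e-04). IGFBP7 passed the filter through the TP-472 group alone, and with no filter on low counts stood at 1.89 ± 0.32 (edgeR adjusted p = 0.00102). IGFBPL1, a related secreted protein, rose from 4.52 to 6.44 CPM to 7.93 to 9.27 CPM (0.65 ± 0.15), and without vehicle replicate 3 was under the limit on fold change (0.55). IGFBP1 had 2 counts over all libraries. Of the 8 further ligands, receptors and binding proteins listed, 3 were tested, of which IGFBP7 and IGFBPL1 were called higher and INSR lower, where 26.9% of all genes tested were called.

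The sequence before the start of IGFBP3 and IGFBP5 is shown because these genes changed most and in opposite directions. Each run holds the 250 bases before the RefSeq start (GRCh38.p14), read 5′ to 3′ on the gene's own minus strand, chr7:45921273-45921522 for IGFBP3 and chr2:216695550-216695799 for IGFBP5. Capitals mark CG dinucleotides.
IGFBP3: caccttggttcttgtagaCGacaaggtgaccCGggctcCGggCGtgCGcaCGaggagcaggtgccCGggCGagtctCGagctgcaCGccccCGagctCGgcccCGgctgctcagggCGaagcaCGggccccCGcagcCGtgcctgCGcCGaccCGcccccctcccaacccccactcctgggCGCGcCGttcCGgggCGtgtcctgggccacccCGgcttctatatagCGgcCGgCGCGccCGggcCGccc
IGFBP5: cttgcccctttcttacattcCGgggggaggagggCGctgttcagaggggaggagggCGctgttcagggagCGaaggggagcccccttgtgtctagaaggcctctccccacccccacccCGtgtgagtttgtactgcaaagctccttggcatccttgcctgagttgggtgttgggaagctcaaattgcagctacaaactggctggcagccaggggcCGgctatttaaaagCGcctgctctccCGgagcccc
The IGFBP3 window held 32 CG dinucleotides, a number reached by 9.52% of the 35116 RefSeq windows of this length, and the IGFBP5 window held 8, reached by 56.3%. The median over all windows was 11. The IGFBP3 window lies inside the gene as GENCODE 29 draws it, because that release gives an outer start further upstream. Of the other genes with a window (9 of the 10 in all), IGFBP6 held 9 CG dinucleotides, IGFBP4 24, IGF2R 33, IRS1 39, IRS2 42 and IGF1R 48, while the 3 windows of IGFBP2 held 4, 7 and 22.

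A search of both strands for 5 short motifs found the GC box GGGCGG 2 times in the IGFBP3 window and not in that of IGFBP5, and 42.6% of all windows hold it. This motif contains a CG dinucleotide, so that count overlaps with the CG count. GGGCGG was also found 1 time for IGFBP4 and for IGFBP6, 2 times for IGF1R, 4 for IRS1, 5 for IRS2 and 6 for IGF2R, and 1 time in 2 of the IGFBP2 windows. The E-box CACGTG was found 3 times before IGF2R and before no other member (6.34% of all windows). The TATA box spelling TATAAA was found 1 time for IGFBP4 alone (10.7% of all windows), and the FOXO core TAAACA 1 time for IGFBP6 alone (10.99%). Other spellings of these motifs were not searched for, so a window without a match can still hold a variant. The AP-1 motif TGANTCA was in none of the members' windows, against 6.57% of all windows. These matches are letters in a window and say nothing of binding.

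IGFBP2 and IGFBP5 are neighbours on chromosome 2 and point towards each other. Their starts are 62.7 kb apart, and their log2 fold changes were 0.42 for IGFBP2, which was not called with all libraries, and -3.39 for IGFBP5. Within 500 kb of the start of IGFBP5, 7 genes were tested, IGFBP5 included, and 3 were called, where 26.9% of all genes tested were. IGFBP5 was picked for its large change, so this count is no test against that share. Besides IGFBP5, which was called lower, MARCHF4, a ubiquitin ligase gene, and the noncoding RNA LINC01963 were called higher. LINC01963 was under the limit on fold change without vehicle replicate 3 (0.55). MARCHF4 had means of 0.297 CPM in vehicle and 1.90 CPM with TP-472 (2.66 ± 0.47), and passed the filter through the TP-472 group alone. With no filter on low counts MARCHF4 also stood at 2.66 (edgeR adjusted p = 8.45e-04). SMARCAL1 (-0.55), RPL37A (0.27) and AC012513.3 (0.38) were not called. Around the start of IGFBP3, also picked for its large change, 4 genes were tested. IGFBP3 itself was the single call, against the same share of all genes. The genes in these windows were described after their values were seen.

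Levels were compared between genes per kb of merged exons (CPM per kb). In vehicle the order of the means was IGFBP6 (102), IGFBP4 (92.1), IGFBP2 (6.24), IGF2R (4.94), IRS2 (3.74), IGFBP3 (1.08), IGF2 (0.786), IGFBP5 (0.664), IRS1 (0.233) and IGF1R (0.191). The ranges over libraries did not overlap between IGFBP4 and IGFBP2, between IRS2 and IGFBP3, or between IGFBP5 and IRS1, and all other neighbours in this order overlapped. With TP-472, IGFBP3 moved from rank 6 to rank 4, with a mean of 6.99, and IGFBP5 from rank 8 to rank 10, with a mean of 0.063. IGFBP3 then overlapped IGFBP2 and stood clear of IGF2R. The order was the same in each group when the longest coding transcript was taken as the length, but IGFBP3 with TP-472 (11.8 to 14.6 CPM per kb) then lay below IGFBP2 (23.4 to 30.9) without overlap. In vehicle, IGFBP2 and IGF2R then no longer overlapped, while IRS2 and IGFBP3 did. IGFBP6 and IGFBP4 were among the more abundant transcripts of these cells: 1.82% and 2.06% of the genes tested had a level per kb as high in vehicle, and 3.92% and 4.16% with TP-472. For IGF1R, 97.8% of the genes tested stood as high in vehicle.

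**Figure D3:**
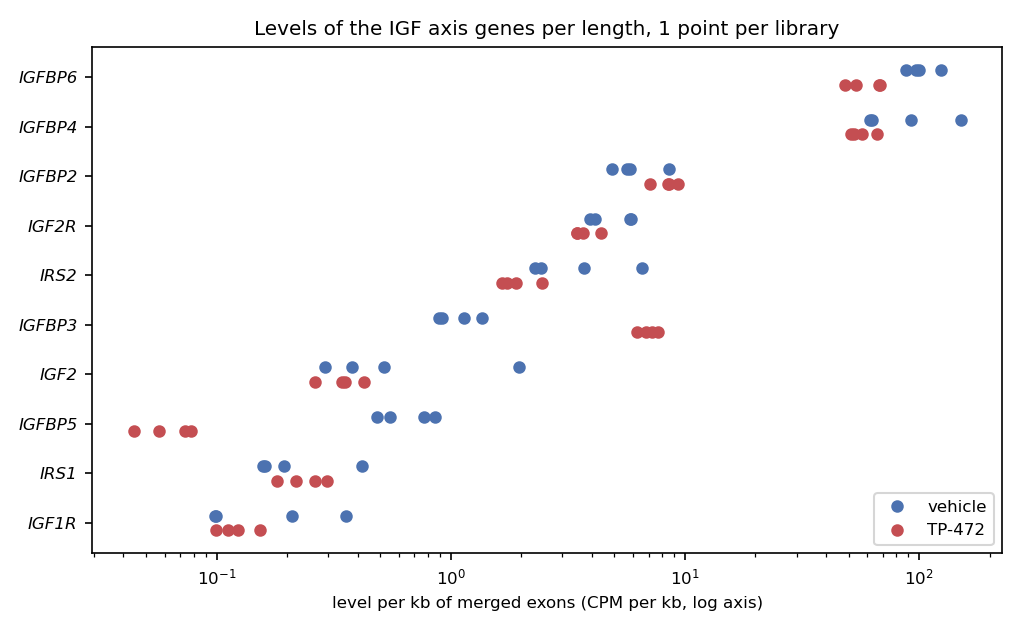
Level of each IGF axis gene per kb of merged exons (CPM per kb, log axis), 1 point per library, vehicle above and TP-472 below for each gene, ordered by the vehicle mean. IGFBP6 and IGFBP4 lie above 40 CPM per kb in every library, and IGFBP3 and IGFBP5 are the genes whose groups lie furthest apart.

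IGFBP6 and IGFBP4 made up most of the binding protein transcripts in both groups. Of the summed level per kb of IGFBP2 to IGFBP7, IGFBP6 made up 51.8% ± 7.7 in vehicle and 44.7% ± 5.4 with TP-472, and IGFBP4 44.1% ± 8.3 and 43.1% ± 5.5 (SD, n = 4). The share of IGFBP2 went from 2.61% to 3.48% in vehicle to 5.46% to 6.98% with TP-472, with no overlap also when vehicle replicate 3 was counted. That of IGFBP3 went from 0.313% to 0.793% to 4.99% to 5.95%. IGFBP5 fell from 0.29% to 0.411% to 0.0366% to 0.0602%. The ratio of IGFBP3 to IGFBP5 per kb was 1.05 to 2.47 in vehicle and 93.3 to 141 with TP-472. The summed level was 167 to 285 CPM per kb in vehicle, the highest value being that of vehicle replicate 3, and 121 to 142 with TP-472. These values depend on the gene length used: by the longest coding transcript, the share of IGFBP2 was 7.63% to 9.85% in vehicle and 14.7% to 18.2% with TP-472, and that of IGFBP3 0.523% to 1.29% and 7.49% to 9.13%. The ratio of IGFBP3 to IGFBP5 was then 1.91 to 4.52 and 171 to 257, with no overlap between the groups by either length.

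Proteases of binding proteins and their inhibitors moved in both directions. Of 19 genes listed, 12 were tested, 3 were called higher and 3 lower (2 lower without vehicle replicate 3 and with the GC correction, through CTSD), where 12% of all genes tested were called higher and 14.9% lower. One of the 3 higher, MMP1, passed the filter through the TP-472 group alone. The stanniocalcins STC1 and STC2 encode secreted inhibitors of PAPPA, a protease of IGFBP4 and IGFBP5. STC1 was at 1.94, 1.95, 2.46 and 2.56 CPM in vehicle and at 10.5, 10.7, 10.2 and 12.8 CPM with TP-472 (2.30 ± 0.16, edgeR adjusted p = 4.59e-05). STC2 was at 5.40 to 8.77 CPM in vehicle and 11.4 to 13.5 CPM with TP-472 (0.87 ± 0.17, edgeR adjusted p = 0.00532). Both rose without overlap between the groups, and the TP-472 libraries lay wholly above the vehicle libraries for 23.8% of all genes tested. PAPPA itself was at 0 in the 4 vehicle libraries and at 2 to 4 counts with TP-472, too low to test. More genes in general had a count with TP-472, as given above. Among the matrix metalloproteinases, the collagenase gene MMP1 rose from 2 to 5 counts per library in vehicle to 41 to 69 counts, a ratio per total count of 15.2 (exact 95% interval 8.72 to 29.1, counting error only). MMP14, a membrane-bound protease, fell from 114 to 187 CPM to 48.7 to 60.8 CPM (-1.29 ± 0.18, edgeR adjusted p = 0.001).

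Of 17 genes listed as receptor adaptors and their brakes, 14 were tested, 1 was called higher and 3 lower, with IRS4 among those not tested. This is 28.6% of those tested, near the 26.9% of all genes tested. GAB2, a docking protein that recruits PI3K and SHP2, fell from 16.8 to 21.9 CPM to 9.24 to 10.9 CPM (-0.86 ± 0.13, edgeR adjusted p = 0.00176). SHC1, the adaptor that leads to RAS, was called lower (-0.69 ± 0.12) but was not called without vehicle replicate 3 (-0.58, just under the limit on fold change) or with the GC correction (-0.51). SOS1, a RAS exchange factor, was called lower (-0.60 ± 0.19, edgeR adjusted p = 0.0393), and was not called in 6 of 22 alternatives, reaching -0.45 without vehicle replicate 1. SOCS2, a feedback inhibitor of growth hormone and IGF signals, rose from 1.63 to 2.06 CPM to 2.46 to 3.99 CPM (0.79 ± 0.20). The receptor-binding brake GRB10 was not called (-0.22 ± 0.12).

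In the PI3K-AKT-mTOR chain, 24 of 25 genes were tested and 5 were called lower (20.8%, against 26.9% of all genes tested), of which 3 (PIK3CB, PIK3R2 and INPPL1) were also called without vehicle replicate 3. With all 8 libraries none was called higher by edgeR, DESeq2 or limma-voom, and 0 were above 0 at an unadjusted edgeR p under 0.05, where 12% of all genes tested were called higher. With the GC correction none was called higher either, but 2 genes named here after their values were seen lay just under the limit on fold change. These were EIF4EBP1 (0.58, edgeR adjusted p = 0.00121) and PIK3CD, a catalytic subunit of PI3K (0.57, edgeR adjusted p = 0.00865). PIK3CD was called higher with the GC correction and vehicle replicate 3 left out (0.61, adjusted p = 0.00762). It was not called without that library alone (0.53, adjusted p = 0.0214). PIK3R2, a regulatory subunit of PI3K, was at 22.04 to 79.4 CPM in vehicle and 11.9 to 14.4 CPM with TP-472 (-1.57 ± 0.39, and -0.997 without the library). INPPL1, the lipid phosphatase SHIP2, fell from 89.0 to 186 CPM to 47.6 to 56.3 CPM (-1.18 ± 0.24, and -0.87 without the library). AKT2 (-0.69 ± 0.19) and TSC2 (-0.96 ± 0.33), which restrains mTOR, were called lower with all libraries and missed the limit on fold change without vehicle replicate 3 (-0.46 and -0.45) and with the GC correction (-0.39 and -0.49). AKT1 was not called (-0.28 ± 0.13), and its log2 fold change was 0.04 with the GC correction. The FOXO factors, which AKT keeps out of the nucleus, were not called (FOXO1 -0.08 ± 0.22, FOXO3 0.06 ± 0.12). The signs of both changed when single libraries were left out.

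Target genes of FOXO moved both ways. Of 23 listed, 17 were tested, 4 were called higher and 6 lower, with a median log2 fold change of -0.06, where 26.9% of all genes tested were called and their median was -0.03. Without vehicle replicate 3 the counts were the same and the median was 0.08, and with the GC correction 3 were higher and 6 lower, because BCL2L11 was not called (0.56). CDKN1B, which encodes the cyclin-dependent kinase inhibitor p27, fell from 73.3 to 108 CPM to 27.6 to 35.8 CPM (-1.53 ± 0.15, edgeR adjusted p = 2.36e-04). KLF15, a transcription factor of metabolism, fell (-1.48 ± 0.23), as did PDK4, which limits the use of pyruvate (-1.35 ± 0.23). TRIB1, a pseudokinase gene, rose from 4.74 to 7.64 CPM to 15.45 to 18.8 CPM (1.51 ± 0.17, edgeR adjusted p = 3.72e-04). In the growth hormone axis, 2 of 3 genes tested were called lower, the transcription factors STAT5A (-0.87 ± 0.14) and STAT5B (-0.76 ± 0.10), where 14.9% of all genes tested were called lower. With the GC correction 1 of the 3 was called, as STAT5A was not (-0.58). The receptor gene GHR was at 1 to 13 counts per library. The genes of the drug targets themselves were not called. BRD9 was at 66.1 to 115 CPM in vehicle and 68.9 to 76.1 CPM with TP-472 (-0.16 ± 0.18, and 0.06 without vehicle replicate 3), and BRD7 at 55.6 to 57.0 CPM and 57.5 to 63.9 CPM (0.11 ± 0.09).

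**Figure D4:**
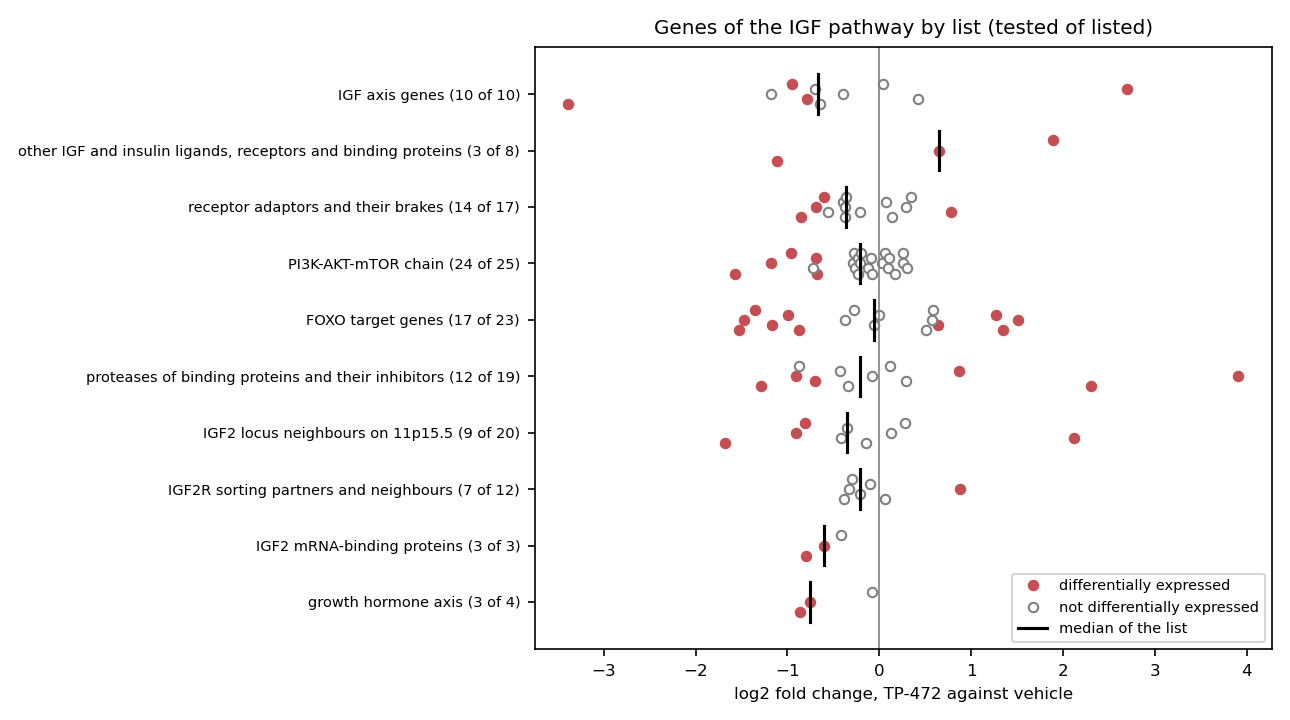
Log2 fold change of each tested gene of the IGF pathway, TP-472 against vehicle, by list (tested of listed in brackets). Filled points are differentially expressed genes, open points are not, and the black bar is the median of the list. The proteases and the FOXO target genes reach far to both sides, and no gene of the PI3K-AKT-mTOR chain is called higher with all 8 libraries, the setting plotted.

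Over the 9 pathway lists other than the 10 named genes and the drug targets, 91 of 130 genes were tested, 12 were called higher and 24 lower, with a median log2 fold change of -0.23. Without vehicle replicate 3 the counts were 12 and 19 and the median -0.12, and with the GC correction the counts were also 12 and 19. For all genes tested, 12% were called higher and 14.9% lower.

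Genes with the pattern closest to that of each member over the 8 libraries were found by the root mean square (RMS) difference of log2 CPM, each gene centred on its own mean. For IGFBP3 these were the chemokine gene CXCL2 (RMS 0.122), the growth factor gene FGF1 (0.143) and the phosphatase gene DUSP6 (0.172). For IGFBP5 they were the antisense RNA SNAP25-AS1 (0.212) and the interferon-induced genes MX2 (0.285) and XAF1 (0.29). For IGFBP6 they were CAPG (0.0667), SMARCD3, a subunit gene of BAF chromatin remodelling complexes (0.0703), and IFI27L2 (0.0793).

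Of the other members, IGF2 was closest to SETD1A, TICAM1 and ANKRD11 (RMS 0.135 to 0.151), and IGF1R to HNRNPUL2-BSCL2, PCBP1 and ATP11A (0.0767 to 0.0839). IGF2R was closest to SIN3A, APOOL and TULP4 (0.0382 to 0.0416), IRS1 to PTDSS2, RRP7BP and SLC2A8 (0.124 to 0.127), and IRS2 to CUX1, FBXL7 and MAP4 (0.0496 to 0.0823). IGFBP2 was closest to CD151, BOP1 and PSMG3 (0.0455 to 0.0507), and IGFBP4 to SIRPA, ANPEP and NDST1 (0.0765 to 0.0805). These distances are a description over 8 libraries of 2 groups.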

How the data were processed

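RNA of SK-UT-1 cells was measured in 4 vehicle and 4 TP-472 libraries. Per the study's methods, stranded libraries of total RNA were quantified with salmon (version 1.4.0 on GRCh38 in the submitters' processing notes) and summed to genes with GENCODE release 34. The values deposited by the authors are estimated counts, neither scaled nor filtered. Strand settings of the counting are not given in the sources used here.

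After rounding of the estimated counts, a gene was tested if it exceeded 1 CPM in 4 or more libraries (14073 of 60282 genes). Where a library was left out, 3 or more libraries were required, so the genes tested differed. TMM scaling and the quasi-likelihood test came from edgeR (version 4.0.16, R 4.3.3). No covariates entered the fit, and the Benjamini-Hochberg adjustment covered every gene tested. The limits for differential expression were those of the study, 0.05 for the adjusted p-value and 1.5 for the fold change. SE is the log2 fold change divided by the root of F. In a test on simulated data with 200 changed genes, 127 were called (94 of 100 changed 4-fold or more), and 8 of 13873 unchanged genes. Some of the 200 were changed exactly 1.5-fold, which is the limit itself. The simulated libraries held no outlying library and no shift in GC content. The test therefore does not measure calls that depend on vehicle replicate 3. Exact two-sided permutation tests were run on log2 CPM (prior count 2). The lowest mean chi-square between 2 libraries was 10.3, so none was a copy of another. The GC correction subtracted a smooth curve of each library's deviations over gene GC content, known for 99.3% of the genes tested. Alternatives used DESeq2 1.42.0, limma 3.58.1 (voom), other scalings and filters, robust estimation, the replicate number as a block, unrounded counts, other limits on fold change and leaving out each library.

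Coordinates, lengths and GC content came from GENCODE release 29 on GRCh38, and sequences from RefSeq on GRCh38.p14. All 169 genes of the lists were matched. Named are all 10 genes, up to 4 called genes per list by size of change, a set of further pathway genes whatever their change, and the 3 genes closest in pattern to each member. PIK3CB, PIK3CD, EIF4EBP1, TSSC4, BCL2L11, the cell type markers and the chromosomal neighbours were named after their values were seen. The members and lists were chosen with earlier results of these data known. The correction of GC content with vehicle replicate 3 left out, the CG counts, the second gene length and the chromosomal neighbours were added after seeing the data.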

Additional observations from a re-analysis of the deposited data

Results flagged for a closer look

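Within the 20 groups of 4 libraries examined (10 genes in vehicle and with TP-472), a single library stood far from the other 3 by Dixon's ratio, its gap divided by the range of the group, in 2 groups. Chance gives this in about 1 in 20 groups. Both were vehicle replicate 3. For IGF2 the ratio was 0.862, at 13.6 CPM against 2.02 to 3.63 CPM in the other vehicle libraries. For IRS1 the ratio was 0.857, at 4.14 CPM against 1.57 to 1.94 CPM.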

How the results depend on the processing

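IGFBP3 stayed higher under all 22 alternatives (log2 fold change 2.59 to 2.83) and IGFBP5 lower under all 21 that tested it (-3.51 to -3.24), while the filter of more than 5 CPM removed IGFBP5, IGF2, IGF1R and IRS1. The number of IGF axis genes called was 4, and 2 with that filter and with a limit of 2-fold, and it ran from 3 to 5 when single libraries were left out. With the limit of 2-fold, the calls over all genes fell to 1704 from 3789 and over the other lists to 16 from 36. When single libraries were left out, calls over all genes ran from 2744 (without TP-472 replicate 3) to 4322 (without vehicle replicate 2), and those over the other lists from 28 to 38. DESeq2 called 5546 of all genes.

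IRS2 was not called with limma-voom (-0.83), total-count scaling (-0.99), the filter of more than 5 CPM (-0.98), robust estimation (-0.95), the GC correction (-0.58), or that correction with vehicle replicate 3 left out (-0.44), and ran from -1.13 to -0.54 over the libraries left out, with the call lost in 6 of 8 cases, all but those without vehicle replicate 2 or 4. IGFBP6 was not called with the GC correction (-0.41) or with that correction and vehicle replicate 3 left out (-0.56), and ran from -0.86 to -0.68. IGFBP2 was called with the GC correction (0.76), with vehicle replicate 3 also left out (0.71), and without that library alone, and ran from 0.32 to 0.61. IGFBP4 was called by DESeq2 (-0.68), with no filter on low counts (-0.69), and without vehicle replicate 2 or 4, stood at -0.21 with the GC correction, and ran from -0.85 to -0.36. IRS1 changed sign with total-count scaling (-0.00666) and ran from -0.10 to 0.48. AKT1 changed sign with the GC correction (0.0435). BRD9 changed sign without vehicle replicate 3, also with the GC correction (0.0523), and ran from -0.25 to 0.0554. FOXO1 ran from -0.18 to 0.10 and FOXO3 from -0.0215 to 0.11. The causes were not tested.

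The labels number the replicates alike in both groups, and the samples were treated as unpaired. Deviations of same-numbered libraries from their group means correlated at -0.06, 0.11, -0.17 and -0.17. Those of differently numbered libraries correlated at -0.30 to 0.40. Because vehicle replicate 3 stood apart and weighs on the vehicle deviations, this check cannot exclude a pairing by number. With the replicate number as a block, 3055 genes were called in all, IRS2 was not called (-0.83), and with the GC correction in the same fit neither was IRS2 (-0.57) nor IGFBP6 (-0.39), IGFBP2 was called (0.76) and AKT1 stood at 0.0544. Low counts limit IGFBP5 with TP-472, at 11 to 19 counts per library. IGF1, INS, IGFBP1 and PAPPA were nearly absent and too low to test.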
